A study of Mus musculus with 10 samples.

Results

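The enzymes of glycolysis and of the citrate cycle were followed in ribosome-bound RNA of striatal cells that express the dopamine D1 receptor. The members were 34 genes picked by symbol for the reactions they catalyse, 16 of glycolysis (hexokinase to lactate dehydrogenase) and 18 of the pyruvate dehydrogenase complex and the citrate cycle, out of 32531 gene rows. All 34 were present in the count files, and all 34 were among the 14680 genes tested between groups.

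Glycolysis splits glucose in the cytosol to pyruvate, which lactate dehydrogenase can convert to lactate. Pyruvate enters the mitochondrion, the pyruvate dehydrogenase complex turns it into acetyl-CoA, and the citrate cycle oxidises the acetyl group and passes the electrons to the respiratory chain. Several steps are run by isozymes encoded by different genes, and in brain some of these are known as mainly neuronal (enolase 2) and others as mainly glial or widespread (enolase 1).

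The mice were adult Drd1-EGFP/Rpl10a (line CP73), in which the Drd1 promoter drives ribosomal protein L10a fused to EGFP, and their FVB/N-Swiss Webster x C57BL/6 background had been taken through at least 9 generations of C57BL/6. The pull-downs were made from whole striatum with antibodies against EGFP and came from 3 groups of 3 libraries: cocaine self-administration, a yoked control, and saline self-administration. All the animals carried the transgene, and the study used intravenous self-administration with short access. A single library of total striatal RNA served as the input. The labels say neither what the yoked mice received, nor the age in weeks, nor whether replicate libraries are from different mice. The p-values thus cover the spread between libraries, which may be technical.

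The libraries held 32.2 to 33.4 times 1e+06 counts in genes in the cocaine group, 38.6 to 45.2 times 1e+06 in the yoked group, 12.5 to 28.4 times 1e+06 in the saline group and 40.5 times 1e+06 in the input. Each group was sequenced on a lane of its own, and the effects of lane and group cannot be told apart. The median member of a list of D1 medium spiny neuron markers stood at 2.61 times the input in the pull-downs, against 0.177 times for markers of D2 medium spiny neurons, 0.211 times for astrocyte markers, 0.137 times for oligodendrocyte markers and 0.203 times for microglial markers. Markers of cortical glutamatergic neurons stood at 2.31 times the input, although their summed level was below the input in yoked 2 and saline 1. The glial markers were still detected: across cocaine, yoked and saline libraries the 10 astrocyte markers summed to between 416 and 963 CPM (counts per 1e+06 counts in genes, scaled with TMM over the 10 libraries), and the microglial marker C1qa in saline library 3 was the only one of the 30 glial markers at 0. The yoked library 3 stood apart from the other pull-downs in many of the enzymes. Values without it are given for many of the results it moved, but not for all of them.

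In the pull-downs most enzymes of both pathways were above the input. The median log2 ratio to the input was 1.19 for glycolysis, a level 2.28 times that of the input, and 0.86 for the citrate cycle, 1.82 times, against 0.16, or 1.12 times, for the 13462 genes that averaged at least 1 CPM. Each ratio was the mean over 9 pull-downs of log2(CPM + 0.5) minus the same value of the input. In every pull-down, 13 of the 16 glycolytic and 15 of the 18 citrate cycle genes were above the input, beside 39.8% of all those genes, and 1 gene of each pathway was below it in every pull-down, beside 27.9%. Fewer cells of a type, less RNA per cell and less of the RNA bound to ribosomes cannot be told apart in such libraries. There was 1 input library, so these ratios carry no test.

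The pathway medians were above the all-gene median in each library. For glycolysis they lay between 1.02 in saline 1 and 1.41 in cocaine 3, and for the citrate cycle between 0.73 in saline 3 and 0.97 in yoked 3, while those of all genes lay between 0.11 and 0.21. The distance to the input depended on the scaling, since with CPM of the library total the all-gene median was -0.044. Set against that median, glycolysis stood 1.03 higher and the citrate cycle 0.71 higher on the log2 scale, and with library totals the differences were 1.05 and 0.71.

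**Figure D1:**
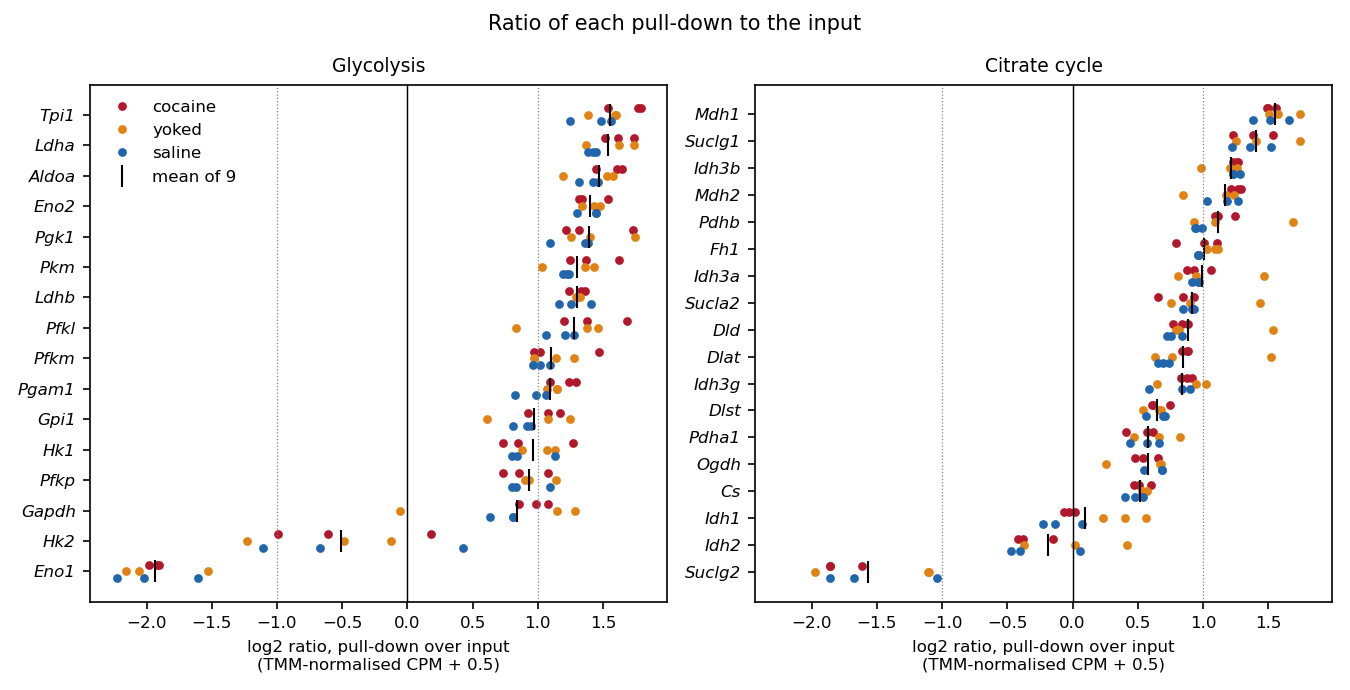
Log2 ratio of each of the 9 pull-downs to the input (horizontal axis, TMM-normalised CPM + 0.5) for the 16 glycolytic genes (left) and the 18 citrate cycle genes (right), coloured by group, with a bar at the mean of 9. Most genes lie right of 0, Eno1 and Suclg2 lie left of -1 in all 9 pull-downs, and in the citrate cycle panel a yoked library (yoked 3) sits to the right of the rest for Pdhb, Idh3a, Sucla2, Dld and Dlat.

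At least 2 times the input in each of the 9 pull-downs were 7 glycolytic genes (Aldoa, Tpi1, Pgk1, Eno2, Pkm, Ldha and Ldhb) and 2 citrate cycle genes (Suclg1 and Mdh1), beside 5.95% of all genes past the CPM minimum. Without yoked library 3, Pfkl and Mdh2 joined them, which gave 8 and 3 genes beside 6.90%. The 7 glycolytic genes all act from the cleavage of fructose bisphosphate onwards. Gapdh, Pgam1 and Eno1 of those steps were not among them, and Pfkl, which acts before, reached 2 times in 8 of 9 pull-downs. Under CPM of the library total the count over both pathways was 4 instead of 9, beside 3.504% of all genes.

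Hexokinase, which phosphorylates glucose, was represented by Hk1, the usual brain form, and Hk2, an inducible form. Hk1 had 67.8 (lowest), 75.0 (median) and 98.7 (highest) CPM over the pull-downs and 40.6 CPM in the input, a ratio of 1.95 times with all 9 pull-downs above the input. Hk2 had 0 to 27 counts in a pull-down and 31 in the input, and its pull-downs ran from 0 to 1.08 CPM around an input level of 0.674 CPM. The mean ratio of Hk2 was 0.701 times, 7 of 9 pull-downs were below the input, and the level was near the counting floor of 3 counts (0.0663 to 0.239 CPM).

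Glucose-6-phosphate isomerase (Gpi1) ran from 181 to 282 CPM, with a median of 229 CPM, against 119 CPM in the input. The 3 phosphofructokinase genes, whose product sets the committed step of the pathway, had similar ratios: 2.42 times for Pfkl, 2.15 times for Pfkm and 1.90 times for Pfkp. Every pull-down was above the input for each of them.

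Aldoa and Tpi1 of the steps that follow were, with Ldha, the 3 highest ratios of the pathway. Aldolase A (Aldoa), which cleaves fructose bisphosphate, had 757, 914 and 1036 CPM as its lowest, median and highest pull-down against 332 CPM in the input, a ratio of 2.76 times. Triose phosphate isomerase (Tpi1; chromosome 6, 124810586 to 124814158, GRCm38.p6), which interconverts the triose phosphates made by aldolase, had 144, 179 and 209 CPM against 60.1 CPM, or 2.93 times. The lowest pull-down of each gene was above 2 times its input level.

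Glyceraldehyde-3-phosphate dehydrogenase (Gapdh), which makes the NADH of glycolysis, was lower among the ratios at 1.79 times: the pull-downs ran from 15.9 to 41.2 CPM, with a median of 30.5 CPM, and the input had 16.6 CPM. The lowest of them, yoked 3, was the 1 pull-down not above the input. Phosphoglycerate kinase (Pgk1) and phosphoglycerate mutase (Pgam1), which follow in the pathway, stood at 2.62 and 2.14 times. Gapdh, Pgk1, Pgam1 and Eno1 have near-identical copies elsewhere in the genome, and reads that aligned to more than 1 place were left out of the counts (1.07 to 1.60 such alignments per gene count in a pull-down, 1.13 in the input). The levels of these 4 genes are therefore uncertain, and without them the glycolytic median ratio was 1.29 on the log2 scale.

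The 2 enolase genes went opposite ways. Eno2 (chromosome 6, 124760053 to 124769673), the neuronal form, had 883, 963 and 1039 CPM as its lowest, median and highest pull-down against 357 CPM in the input, 2.64 times. Eno1 (chromosome 4, 150236708 to 150248879), the form known from glia and most other tissues, had 0.274, 0.421 and 0.760 CPM against 3.13 CPM, on 8 to 33 counts in a pull-down and 144 in the input. The pseudocount raises the ratio of so low a gene: it was 0.262 times with 0.5 CPM added and 0.148 times as the plain ratio of the mean CPM. With the pseudocount of 0.5 CPM all 9 pull-downs of Eno1 were more than 2 times below the input, as were those of 8.8% of all genes. With 2 CPM neither Eno1 nor Suclg2 was 2 times below in every pull-down, where 5.57% of all genes were.

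The last steps make pyruvate and lactate. Pyruvate kinase (Pkm) had 308, 357 and 463 CPM as its lowest, median and highest pull-down against 150 CPM in the input, 2.47 times. Lactate dehydrogenase A (Ldha) had 163, 181 and 210 CPM against 62.8 CPM, 2.91 times, and lactate dehydrogenase B (Ldhb) had 342, 379 and 407 CPM against 153 CPM, 2.46 times. Both subunit genes were above 2 times the input in each pull-down. Transcript lengths were not used here, so the CPM of different genes give no order of their levels.

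**Figure D2:**
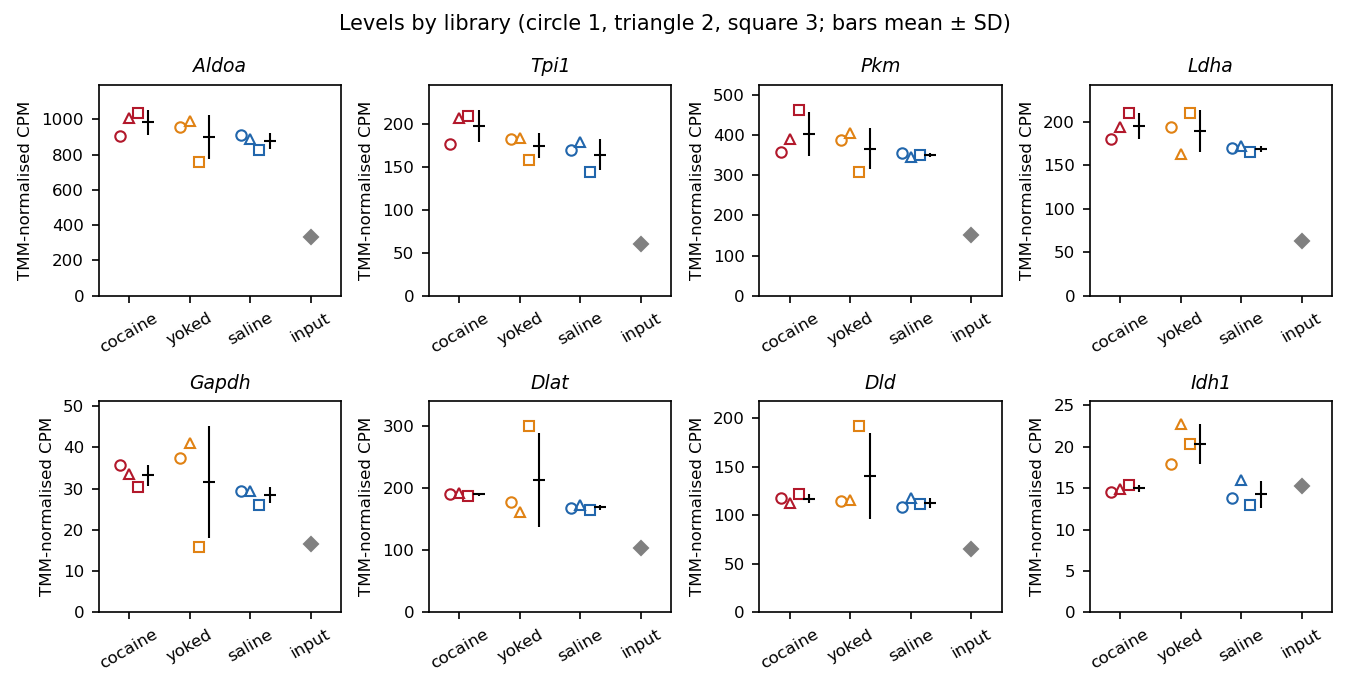
TMM-normalised CPM (vertical axes, starting at 0) of 8 enzymes in each cocaine, yoked, saline and input library, with library 1 as a circle, 2 as a triangle and 3 as a square, and a bar for the mean ± SD of 3. Yoked 3 is the lowest square for Aldoa, Pkm and Gapdh and the highest for Dlat and Dld, and all 3 yoked libraries of Idh1 lie above all the others.

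Among the citrate cycle genes, the pyruvate dehydrogenase complex had ratios of 1.496 times for Pdha1 and 2.17 times for Pdhb (the E1 subunits), 1.797 times for Dlat (the acetyltransferase E2) and 1.84 times for Dld (the lipoamide dehydrogenase E3). All 9 pull-downs were above the input for each of them. Citrate synthase (Cs), which joins acetyl-CoA to oxaloacetate, was close among the pull-downs, at 208 to 239 CPM against 157 CPM in the input, 1.43 times.

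The NAD-dependent isocitrate dehydrogenase of the cycle is built from Idh3a, Idh3b and Idh3g, and these stood at 1.99, 2.33 and 1.79 times the input. Idh3b had 212, 252 and 261 CPM as its lowest, median and highest pull-down against 107 CPM, with 8 of 9 pull-downs at 2 times the input or more. The NADP-dependent isozymes were not above the input as a group. Idh1, the cytosolic form, had 12.9, 15.4 and 22.7 CPM against 15.2 CPM, and 5 of 9 pull-downs were above the input. Idh2, the mitochondrial form, had 4.58, 4.96 and 8.96 CPM against 6.57 CPM, a ratio of 0.878 times with 6 of 9 pull-downs below.

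The oxoglutarate dehydrogenase subunits Ogdh and Dlst stood at 1.49 and 1.57 times the input. Succinyl-CoA ligase has a shared alpha subunit (Suclg1) and 2 alternative beta subunits, the ADP-forming Sucla2 and the GDP-forming Suclg2. Suclg1 had 69.9, 78.3 and 101 CPM as its lowest, median and highest pull-down against 29.7 CPM in the input, 2.65 times, and Sucla2 stood at 1.88 times. Suclg2 had 0.491, 0.719 and 1.39 CPM against 3.39 CPM, 0.338 times with the pseudocount and 0.252 times without, on 13 to 57 counts in a pull-down and 156 in the input. All 9 pull-downs of Suclg2 were more than 2 times below the input with 0.5 CPM added.

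Fumarase (Fh1) stood at 2.01 times. Malate dehydrogenase has a cytosolic form, Mdh1 (chromosome 11, 21556692 to 21571934), and a mitochondrial form, Mdh2, which the malate-aspartate shuttle links. Mdh1 had 654, 713 and 839 CPM as its lowest, median and highest pull-down against 250 CPM in the input, 2.92 times, and Mdh2 stood at 2.25 times. Each pull-down was above 2 times the input for Mdh1, and 8 of 9 were for Mdh2.

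Ratios between isozymes were taken within a library, as differences of log2(CPM + 0.5), which understates the ratio where 1 gene is low. Without a correction for length such a ratio has no meaning of its own, and only its difference between pull-down and input, where length cancels, is read. By this measure 3 of the 8 pairs examined moved towards 1 gene by more than 1 on the log2 scale. The log2 ratio of Eno2 to Eno1 was 9.96 ± 0.25 over the 9 pull-downs (SD) and 6.62 for the input, a difference of 3.34. That of Sucla2 to Suclg2 was 6.27 ± 0.50 over the pull-downs and 3.79 for the input, a difference of 2.48. For Hk1 to Hk2 it was 6.61 ± 0.65 over the pull-downs and 5.13 for the input, with Hk2 too low for a firm value. All 9 pull-downs lay above the input for these 3 pairs. Each pair rests on a gene of low counts: Eno1 (8 to 33 in a pull-down), Suclg2 (13 to 57) and Hk2 (0 to 27). Eno1 also has near-identical copies elsewhere in the genome, so its level is uncertain. The other pairs differed little: Mdh2 to Mdh1 by -0.38, Idh2 to Idh1 by -0.28 and Ldhb to Ldha by -0.24, each with 0 of 9 pull-downs above the input, and Pfkm to Pfkl and Pfkp to Pfkm by -0.17 each.

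**Figure D3:**
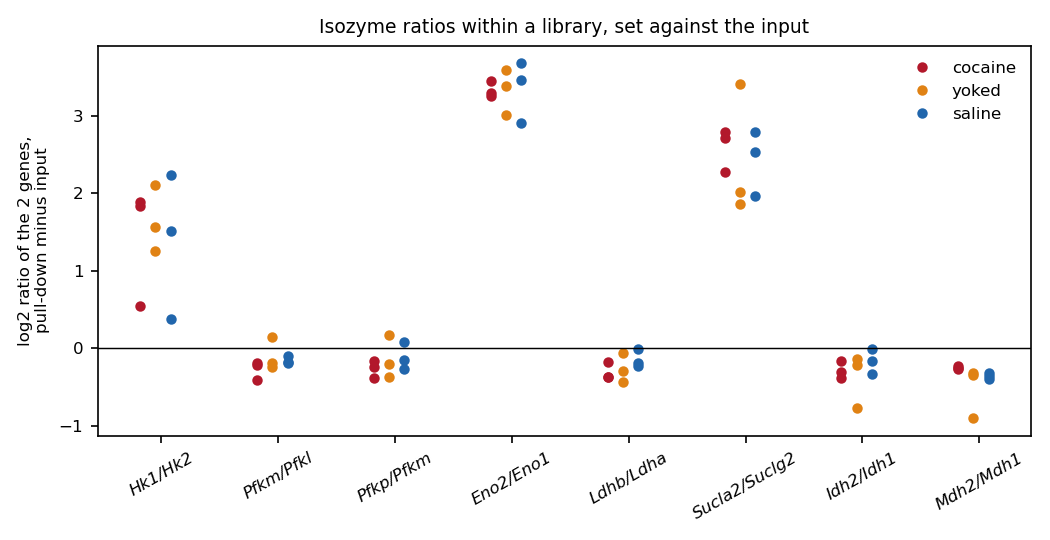
Log2 ratio of the 2 genes of each isozyme pair in a pull-down minus that in the input (vertical axis), 1 point per library, coloured by group, with the line at 0 marking the input. Eno2 over Eno1 and Sucla2 over Suclg2 lie above the input by more than 1 in every library, though Eno1 and Suclg2 had low counts. Ldhb over Ldha, Idh2 over Idh1 and Mdh2 over Mdh1 lie below the input.

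Idh2 and Suclg2 were highest in yoked 2, saline 2 and yoked 1. A glial score, the mean log2 level of the astrocyte, oligodendrocyte and microglial lists, was also highest in yoked 2 (3.89), saline 2 (3.24) and yoked 1 (3.10). Cocaine 1 (3.005) and cocaine 2 (2.90) followed. The score was lowest in the libraries numbered 3, at 1.99 in saline 3, 2.08 in yoked 3 and 2.23 in cocaine 3. The mean log2 level of the D2 neuron markers was highest in yoked 2, saline 2 and yoked 1 (5.16, 4.73 and 4.38), with cocaine 2 (4.31) and cocaine 1 (4.25) next. Suclg2 had 1.31, 1.39 and 1.30 CPM in those first 3 libraries and 0.491 to 0.769 CPM in the other 6. Idh2 had 8.96, 6.86 and 6.66 CPM in the same 3, against 4.58 to 5.87 CPM in the other 6. Cocaine 1 and cocaine 2, with scores near that of yoked 1, had 0.572 and 0.769 CPM of Suclg2 and 4.94 and 4.80 CPM of Idh2. In the cocaine, yoked and saline groups the astrocyte markers summed to 416 to 589, 502 to 963 and 496 to 605 CPM, against 2144 CPM in the input, and the oligodendrocyte markers to 266 to 512, 226 to 1070 and 268 to 672 CPM, against 2598 CPM. The microglial markers summed to 10.8 to 17.9, 9.15 to 34.05 and 8.56 to 19.0 CPM, against 86.2 CPM. The part of glial or D2 neuron RNA in these levels was not tested. Over the groups the score was 2.71 ± 0.42 in cocaine, 3.02 ± 0.91 in yoked and 2.64 ± 0.62 in saline libraries (SD, n = 3 each).

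Further genes of the pathways and of routes linked to them, taken from lists by function, had a lower median when pooled. Of 55 listed genes 54 were in the files, and the 45 past the CPM minimum had a median ratio of 1.47 times. The lists differed: the 7 other citrate cycle subunits had a median of 1.87 times, and the 5 other glycolytic isozymes past the minimum 0.669 times. At least 2 times above the input in each pull-down were 5 of the 45: Pgam2, a phosphoglycerate mutase known from muscle (3.88 times), Mpc2, a subunit of the mitochondrial pyruvate carrier (4.31 times), and Sdhb, Sdhc and Sdhd, subunits of succinate dehydrogenase (3.55, 2.45 and 3.05 times). Pdk4, a kinase that inactivates pyruvate dehydrogenase, was the 1 gene at least 2 times below in each, with a pull-down level of 1.70 ± 0.98 CPM (SD, n = 9) and 7.54 CPM in the input. Aldoc, the aldolase known as an astrocyte gene, stood at 0.389 times, with values from 28.9 CPM in yoked 3 to 189 CPM in yoked 2 against 179 CPM in the input.

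Between the groups, none of the 34 genes passed the test. With edgeR's quasi-likelihood test and Benjamini-Hochberg adjustment over 14680 genes, 0 members were called in the contrast of cocaine with saline, in that of cocaine with yoked and in that of yoked with saline, where 0% of all genes were called in each. The smallest adjusted p of a member was 0.999, 0.974 and 0.999 in these comparisons. At an unadjusted p under 0.05 the members numbered 0, 1 and 1, the gene being Idh1 both times, beside 2.84%, 2.58% and 1.84% of all genes. DESeq2 also called 0 members in each. The comparisons share their groups, so values of the same gene are given side by side and are not independent.

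**Figure D4:**
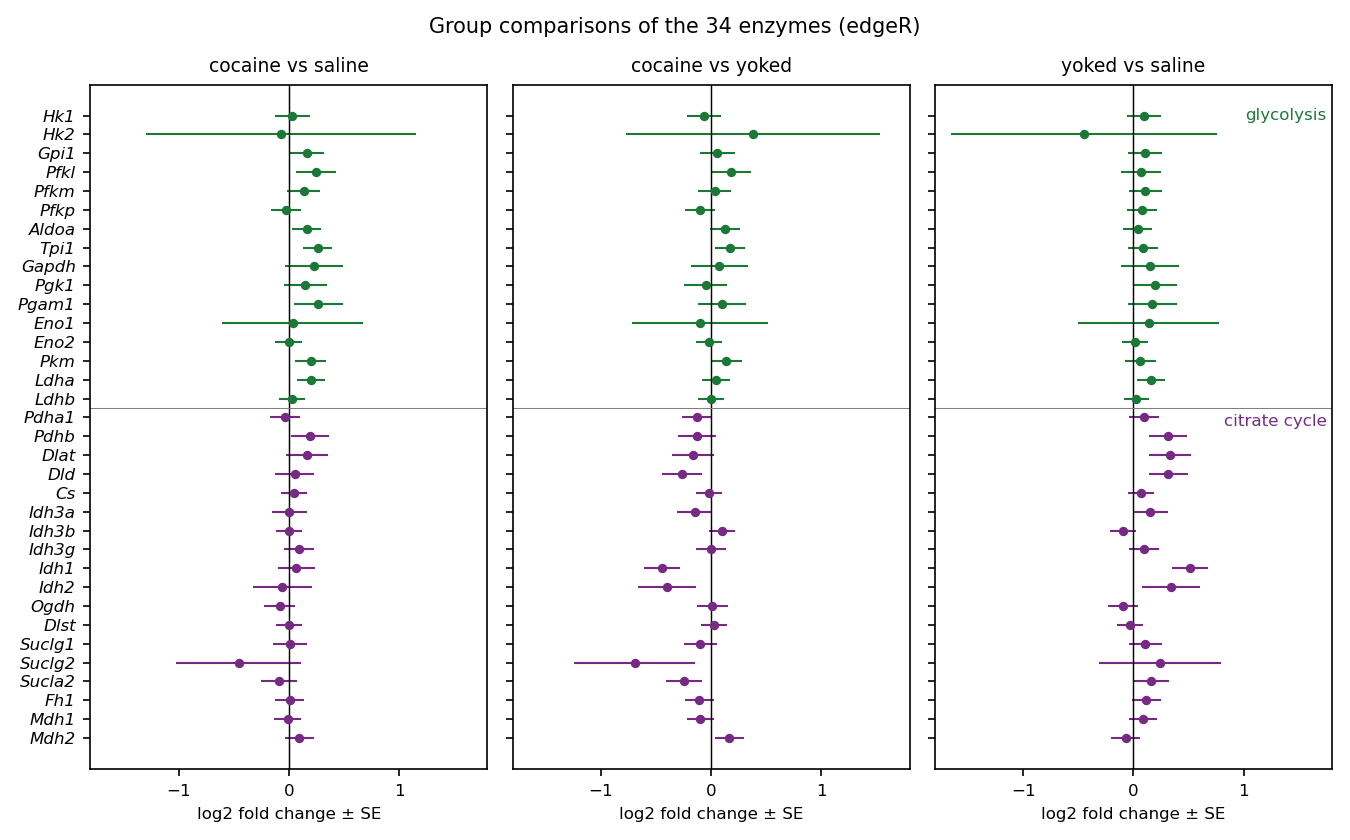
Log2 fold change ± SE from edgeR (horizontal axes) of the 16 glycolytic genes (green, upper) and the 18 citrate cycle genes (purple, lower), with cocaine over saline on the left, cocaine over yoked in the middle and yoked over saline on the right. No gene passed an adjusted p under 0.05, the widest bars belong to the low genes Hk2, Eno1 and Suclg2, and Idh1 lies farthest from 0 in units of its SE where yoked is compared.

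In cocaine against saline, glycolysis had a median log2 fold change of 0.16 with 13 of 16 genes above 0, and the citrate cycle a median of 0.0062 with 10 of 18 above 0, where the median of all tested genes was 0.0036, with 50.6% above 0. Without the libraries numbered 3 of each group the glycolytic values were 0.057 and 9 of 16, and those of the citrate cycle -0.024 and 6 of 18. DESeq2 gave -0.0046 and 7 of 18 for the citrate cycle. Cocaine 3 held the highest of the 9 values in 8 of the 16 glycolytic genes, beside 1874 of the 14680 tested genes. Without that library the glycolytic median was 0.10 with 11 of 16 above 0.

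The largest glycolytic differences were those of Pgam1, Tpi1 and Pfkl. Pgam1 had 4.45, 4.98 and 5.20 CPM in cocaine libraries and 4.11, 3.62 and 4.37 CPM in saline libraries, a log2 fold change of 0.27 ± 0.22 (SE). The groups did not overlap, on 47 to 162 counts. Tpi1 had 176, 206 and 209 CPM in cocaine libraries and 169, 179 and 144 CPM in saline libraries, 0.26 ± 0.14, and 0.17 without saline 3. Pfkl had 45.1, 50.9 and 63.01 CPM in cocaine libraries and 40.9, 47.4 and 45.2 CPM in saline libraries, 0.25 ± 0.18, and 0.11 without cocaine 3. For both of these genes the groups overlapped. At the other end Hk2 (-0.070 ± 1.22), Pfkp (-0.025 ± 0.14) and Eno2 (-0.0030 ± 0.12) differed by less than their SE.

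Groups did not overlap for Gapdh, Pgam1, Pkm and Ldha (4 of 16) and for Pdhb and Dlat (2 of 18), all higher in cocaine libraries, where 6.38% of all tested genes were, and no member was lower without overlap, where 5.01% were. Pkm had 357, 390 and 463 CPM in cocaine libraries and 356, 345 and 351 CPM in saline libraries, so that its lowest cocaine value lay next to the highest saline value. Ldha had 181, 194 and 210 CPM in cocaine libraries and 170, 172 and 165 CPM in saline libraries, 0.20 ± 0.13. The count depended on the scaling: with CPM of the library total Pgam1, Ldha and Pdhb remained and Sucla2 was lower without overlap, while TMM over the 9 pull-downs alone added Aldoa. Of all tested genes, 3.76% were higher and 7.31% lower without overlap by library totals, and 6.38% and 5.08% by TMM over 9.

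In the citrate cycle, Pdhb had 130, 128 and 142 CPM in cocaine libraries and 116, 115 and 119 CPM in saline libraries, 0.19 ± 0.17. Dlat had 191, 192 and 186 CPM in cocaine libraries and 168, 173 and 164 CPM in saline libraries, 0.17 ± 0.19. These 2 subunits of the pyruvate dehydrogenase complex were followed by Mdh2 (0.093 ± 0.13). The lowest values were those of Suclg2 (-0.45 ± 0.57), Sucla2 (-0.088 ± 0.17) and Ogdh (-0.084 ± 0.14). Single libraries carried these values: Suclg2 was at -0.015 without saline 2, the shallowest library, Sucla2 at -0.019 without cocaine 2, Ogdh at -0.050 without cocaine 2, and Mdh2 at 0.040 without saline 2. Suclg2 had 0.572, 0.769 and 0.570 CPM in cocaine libraries and 0.719, 1.39 and 0.574 CPM in saline libraries, and the groups overlapped.

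In cocaine against yoked, the glycolytic median was 0.049 with 11 of 16 genes above 0, and the citrate cycle median -0.12 with 4 of 18 above 0, against -0.026 and 45.5% for all tested genes. Both moved towards 0 without yoked 3, to -0.011 with 7 of 16 and to -0.011 with 7 of 18, where the all-gene median was 0.0097. Idh1 was the only member without overlap, lower in cocaine libraries, beside 3.4% of all tested genes, while 3.22% were higher without overlap. In CPM of the library total Cs was also lower without overlap, and with TMM over 9 pull-downs Mdh2 was higher without overlap. The all-gene shares were 2.87% higher and 3.6% lower by library totals, and 3.42% and 3.34% by TMM over 9.

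Idh1 (chromosome 1, 65158616 to 65186479) makes NADPH in the cytosol. It had 14.5, 14.95 and 15.4 CPM in cocaine libraries and 18.0, 22.7 and 20.3 CPM in yoked libraries, a log2 fold change of -0.44 ± 0.16 with an unadjusted edgeR p of 0.0173 and a Benjamini-Hochberg adjusted p of 0.974. Every yoked library was above every cocaine library, and leaving out any 1 library gave -0.53 to -0.35. The part of glial RNA in this difference was not tested.

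The other citrate cycle genes at the lower end were Suclg2 (-0.69 ± 0.55) and Idh2 (-0.40 ± 0.26). Idh2 had 4.94, 4.80 and 5.87 CPM in cocaine libraries and 6.66, 8.96 and 4.96 CPM in yoked libraries, with overlap. Suclg2 had 0.572, 0.769 and 0.570 CPM in cocaine libraries and 1.30, 1.31 and 0.491 CPM in yoked libraries. In both genes yoked 3 lay at or near the cocaine values while yoked 1 and yoked 2 lay above them. Without yoked 2 Idh2 was at -0.15. At the upper end were Mdh2 (0.16 ± 0.13), Idh3b (0.096 ± 0.12) and Dlst (0.029 ± 0.12), and Mdh2 was at 0.054 without yoked 3, Dlst at -0.010 without yoked 3 or without cocaine 3, and Idh3b at 0.15 without yoked 3 and at 0.024 without yoked 2.

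Among glycolytic genes, Pfkl had 45.1, 50.9 and 63.01 CPM in cocaine libraries and 50.9, 54.0 and 34.8 CPM in yoked libraries, 0.18 ± 0.18, which was 0.012 without yoked 3, 0.046 without cocaine 3, 0.28 without cocaine 1 and 0.31 without yoked 2. Tpi1 had 176, 206 and 209 CPM in cocaine libraries and 183, 183 and 158 CPM in yoked libraries, 0.17 ± 0.13, and 0.11 without yoked 3. Hk2 had the highest fold change but an SE above 1 (0.38 ± 1.15), with 3, 27 and 8 counts in cocaine libraries and 13, 25 and 0 in yoked libraries. None of these 3 genes separated the groups, and neither did Eno1 (-0.10 ± 0.61), Pfkp (-0.10 ± 0.14) and Hk1 (-0.065 ± 0.16). Without yoked 3 Pfkp was at -0.019, Hk1 at -0.14, Eno1 at -0.26 and Hk2 at -0.20. Without cocaine 2 Hk1 was at 0.035, and without yoked 2 Eno1 was at 0.40.

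In yoked against saline, the glycolytic median was 0.092 with 15 of 16 genes above 0 and the citrate cycle median 0.11 with 14 of 18 above 0, against 0.026 and 55% for all tested genes. Without yoked 3 the citrate cycle median was 0.029 with 14 of 18 above 0, and the glycolytic median 0.15 with 15 of 16. Without yoked 2 the glycolytic median was -0.0065 with 8 of 16 above 0. Groups did not overlap for Pgam1, Idh1 and Fh1, all higher in yoked libraries, beside 3.46% of all tested genes, and no member was lower without overlap, beside 3.13%.

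Idh1, at 18.0, 22.7 and 20.3 CPM in yoked libraries and 13.8, 16.0 and 12.9 CPM in saline libraries, had a log2 fold change of 0.51 ± 0.17, with an unadjusted edgeR p of 0.00816 and a Benjamini-Hochberg adjusted p of 0.999. Leaving out any 1 library gave 0.41 to 0.61. Fh1 had 43.7, 41.1 and 43.0 CPM in yoked libraries and 39.2, 39.2 and 39.3 CPM in saline libraries, 0.12 ± 0.13. The difference of Fh1 was small beside the SE of the fit, although its groups did not overlap.

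The glycolytic genes at the upper end were Pgk1 (0.20 ± 0.20), Pgam1 (0.17 ± 0.22) and Ldha (0.16 ± 0.13). Without yoked 3 Pgk1 was at 0.038, Pgam1 at 0.15 and Ldha at 0.076, and without saline 2 Pgk1 was at 0.12, while without yoked 2 Ldha was at 0.24. Other members rose without yoked 3: Gpi1 was then at 0.27, and Gapdh, then the highest of the pathway, at 0.47. For Gapdh the edgeR p of that fit was 0.0034 unadjusted and 0.9996 adjusted. Pgk1 had 14.3, 12.8 and 18.2 CPM in yoked libraries and 13.9, 11.4 and 14.1 CPM in saline libraries, with overlap. Pgam1 had 4.66, 4.38 and 4.66 CPM in yoked libraries and 4.11, 3.62 and 4.37 CPM in saline libraries, so that the lowest yoked value lay next to the highest saline value. At the lower end were Hk2 (-0.45 ± 1.21), Eno2 (0.015 ± 0.12) and Ldhb (0.027 ± 0.12). Without yoked 3 Hk2 was at 0.15, Eno2 at 0.053 and Ldhb at 0.033.

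In the citrate cycle, Idh2 (0.34 ± 0.26) and Dlat (0.33 ± 0.19) followed Idh1. Idh2 had 6.66, 8.96 and 4.96 CPM in yoked libraries and 4.58, 6.86 and 4.85 CPM in saline libraries, and its fold change was 0.093 without yoked 2, 0.54 without yoked 3, 0.23 without saline 1 and 0.55 without saline 2. Dlat had 177, 161 and 299 CPM in yoked libraries and 168, 173 and 164 CPM in saline libraries, and without yoked 3 its fold change was 0.00065 on the log2 scale. The value of Dlat in this comparison thus rested on yoked 3. Idh3b (-0.097 ± 0.12), Ogdh (-0.096 ± 0.14) and Mdh2 (-0.071 ± 0.13) were lowest. Without yoked 3 these genes had -0.15, 0.031 and 0.040.

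Yoked 3 held the highest or the lowest value in more of the enzymes than any other pull-down. It was the highest of the 9 pull-downs in 8 of the 18 citrate cycle genes and 3 of the 16 glycolytic genes, beside 26.8% of all tested genes, and the lowest in 4 of 18 and 6 of 16, beside 23.8%. Highest in the citrate cycle were Dlat, Dld, Pdhb, Sucla2, Idh3a, Suclg1, Pdha1 and Mdh1, which include all 4 subunits of the pyruvate dehydrogenase complex on the list. Lowest in glycolysis were Gapdh, Pfkl, Gpi1, Aldoa, Pkm and Hk2. Each pathway also held genes of the other direction. Highest in glycolysis were Pgk1, Pfkp and Ldha, and lowest in the citrate cycle were Mdh2, Ogdh, Dlst and Suclg2. The genes were named after their values were seen, and no test was made.

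Dlat had 299 CPM in yoked 3 and 161 to 192 CPM in the other 8 pull-downs, Dld 192 CPM and 109 to 121 CPM, and Pdhb 194 CPM and 115 to 142 CPM. Gapdh had 15.9 CPM in yoked 3 and 26.1 to 41.2 CPM in the others, and Ogdh 289 CPM and 338 to 390 CPM. Yoked 3 was the deepest library at 45.2 times 1e+06 counts, with the highest sum of D1 neuron markers (3466 CPM, against 2239 to 3005 CPM in the others), the highest sum of cortical neuron markers (128 CPM, against 22.5 to 113 CPM) and the second lowest glial score. The part of these in its enzyme levels was not tested.

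**Figure D5:**
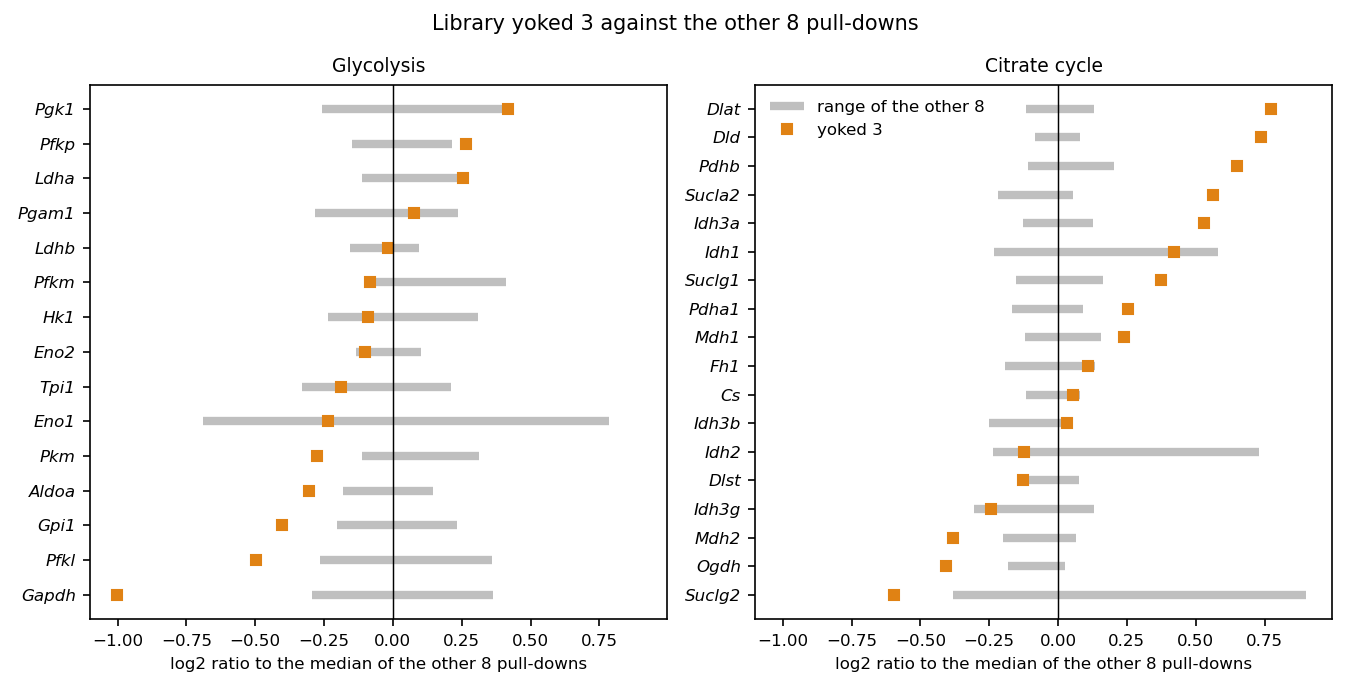
Log2 ratio of yoked 3 to the median of the other 8 pull-downs (orange squares, horizontal axis) and the range of the other 8 (grey bars) for glycolytic (left) and citrate cycle genes (right); Hk2, with 0 counts in yoked 3, is left out. Dlat, Dld and Pdhb lie at 0.77, 0.74 and 0.65, and Gapdh at -1.004, all outside the grey range.

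The promoters of 4 of these genes are shown: Dlat, Dld and Pdhb, the highest in yoked 3 relative to the other 8 pull-downs, and Gapdh. Gapdh was the lowest apart from Hk2, which had 0 counts there. The products of these 4 genes act between glyceraldehyde phosphate and acetyl-CoA. So do those of other members, of which Pgk1 (0.42) and Pdha1 (0.25) were high in yoked 3 and Pkm (-0.27) low, as log2 ratios. Promoters of Pfkl and Gpi1, also low in yoked 3, were extracted too and are not shown. The 4 shown were chosen after their values were seen. Each is the 250 bases before the start that the RefSeq promoter table takes for the gene, on the gene's strand in GRCm38.p6, with capitals marking the core of the hypoxia response element (ACGTG, or CACGT on the other strand) and the CCAAT box (CCAAT or ATTGG). All 4 genes lie on the minus strand, at chr9:50659781-50660030 for Dlat, chr12:31351472-31351721 for Dld, chr14:8172993-8173242 for Pdhb and chr6:125165774-125166023 for Gapdh. For Dlat and Dld the window ends where the annotated gene begins, while the gene spans of Pdhb (chromosome 14, 8165991 to 8173303) and Gapdh (chromosome 6, 125161852 to 125166467) reach past their windows, which thus lie within the annotated genes.
Dlat: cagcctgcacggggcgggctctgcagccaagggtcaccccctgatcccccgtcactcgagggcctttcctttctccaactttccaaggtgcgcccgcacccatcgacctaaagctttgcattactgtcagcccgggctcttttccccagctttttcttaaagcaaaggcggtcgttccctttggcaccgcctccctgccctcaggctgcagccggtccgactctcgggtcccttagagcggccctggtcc
Dld: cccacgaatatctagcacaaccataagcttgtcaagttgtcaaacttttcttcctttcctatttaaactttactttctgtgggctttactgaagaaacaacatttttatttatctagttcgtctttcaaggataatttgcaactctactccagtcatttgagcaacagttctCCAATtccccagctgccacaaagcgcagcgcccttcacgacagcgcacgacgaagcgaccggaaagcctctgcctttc
Pdhb: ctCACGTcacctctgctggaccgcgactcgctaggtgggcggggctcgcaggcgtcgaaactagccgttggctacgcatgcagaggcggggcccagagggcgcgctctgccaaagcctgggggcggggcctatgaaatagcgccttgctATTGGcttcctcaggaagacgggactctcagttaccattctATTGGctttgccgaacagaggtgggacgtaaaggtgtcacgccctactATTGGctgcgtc
Gapdh: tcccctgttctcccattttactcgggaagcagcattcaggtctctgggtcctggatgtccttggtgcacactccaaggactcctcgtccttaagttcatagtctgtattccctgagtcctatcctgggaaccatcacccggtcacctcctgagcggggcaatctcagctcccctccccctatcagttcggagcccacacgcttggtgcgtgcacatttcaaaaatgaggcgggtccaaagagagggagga

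In these windows Pdhb held 1 hypoxia response core and 3 CCAAT boxes, Dld 1 CCAAT box, and Dlat and Gapdh neither motif. Of the members, 33 had a window in the RefSeq table, and Idh3a had none. A gene was counted if any of its windows held the motif. The hypoxia response core was found for 7 of 16 glycolytic genes (Hk2, Pfkm, Aldoa, Pgk1, Pgam1, Pkm and Ldha). It was found for 4 of 17 citrate cycle genes, beside 18.5% of the 27025 genes with a window. The CCAAT box was found for 7 of 16 and 10 of 17 genes, beside 37.5%. The consensus motifs of NRF1 and of the oestrogen-related receptors were found for 0 of 33 members, beside 0.877% and 0.422% of all genes with a window. Both strands were searched, and a match is a run of letters and no measured site.

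As a description of the libraries, the 3 members of the highest correlation were picked for Pkm and for Cs. Over the 9 pull-downs, the members whose log2 CPM was most like that of Pkm were Pfkl, Aldoa and Gpi1, with Pearson r of 0.951, 0.910 and 0.884, and without yoked 3 they were Pfkl, Aldoa and Pfkm, with 0.924, 0.857 and 0.845. For Cs they were Pdha1, Ldha and Pfkm (0.683, 0.641 and 0.626), and without yoked 3 Pfkl, Pfkm and Dld (0.919, 0.823 and 0.791). These are the highest of 33 values each, the points share library, depth and scaling, and for Cs only Pfkm was among the 3 highest both with and without yoked 3.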

How the data were processed

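RNA of 9 EGFP-L10a pull-downs and 1 input was analysed. The authors deposited raw counts for each gene symbol, made with STAR 2.0.0e, HTSeq and mm10 according to the submitters' processing notes. Annotation, strandedness and counting mode: not given in the sources used here, so reads of genes that overlap on opposite strands cannot be told apart. The 6 rows naming no gene entered neither library sizes nor tests; alignments to no feature were 12.3% to 16.1% in pull-downs and 27.6% in the input, and ambiguous ones 2.54% to 3.03% and 6.63%. Rn45s took 10.5% to 20.5% of gene counts in pull-downs. Replicate counts differed beyond sampling noise in every pair, so none was a duplicate.

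Groups were compared with edgeR 4.0.16 (R 4.3.3): TMM, filterByExpr and the quasi-likelihood test on the 9 pull-downs with group as the only term, adjusted over 14680 genes. The SE is the fold change divided by the root of F. The common biological coefficient of variation was 23.7%. DESeq2 1.42.0 was an alternative. The scripts were tested on simulated counts. Printed CPM used TMM over all 10 libraries, and ratios to the input a pseudocount of 0.5 CPM. The floor of 3 counts and the depths cover counting error only. Named genes were the 3 highest and 3 lowest of each pathway in each comparison; members and lists were chosen with earlier results of these data known. The rule also asked for levels per length, which were not computed. Promoters come from RefSeq, GRCm38.p6.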

Additional observations from a re-analysis of the deposited data

Results flagged for a closer look

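In 9 of the 36 values tested, the highest or lowest of the 9 pull-downs lay apart from the rest by more than the 95% limit of Dixon's test, which chance exceeds in about 1 of 20 groups. The values are log2 ratios to the input, and the 36 values share their libraries. The share of all tested genes beyond this limit was not computed. Yoked 3 was the highest pull-down in 26.8% of all tested genes and the lowest in 23.8%. Of the 9 flagged values, 7 were in yoked 3. It was the highest for Pdhb (1.69, against 0.93 to 1.24 in the other 8 pull-downs), Dlat (1.52, against 0.63 to 0.88), Dld (1.54, against 0.72 to 0.88), Idh3a (1.47, against 0.81 to 1.06) and Sucla2 (1.44, against 0.66 to 0.93). It was the lowest for Gapdh (-0.058, against 0.64 to 1.28) and Ogdh (0.25, against 0.48 to 0.69). Idh3b was lowest in yoked 2 (0.98, against 1.21 to 1.29), and Fh1 was lowest in cocaine 2 (0.80, against 0.96 to 1.12).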

How the results depend on the processing

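No alternative called a member in any comparison, by edgeR or DESeq2; over all genes the calls were 0 or 1. Deviations from the group means correlated at 0.13 to 0.25 between libraries numbered 2 or numbered 3, at -0.017 to 0.053 between those numbered 1, and at -0.25 to 0.15 between different numbers. Since not every same-number pair was over 0.1 and the labels give the number no meaning, the libraries were not treated as paired. A fit with the replicate block called 0 members and 1 gene in each comparison; under it Hk2 in cocaine against saline was 0.21 and Eno1 in cocaine against yoked 0.012. Leaving out the libraries numbered 3 was chosen after seeing the data. It gave a glycolytic median of -0.095 in cocaine against yoked, with Pfkl at -0.12 and Dlst at -0.049, and in yoked against saline Ldhb -0.027, Dlat -0.022, Ogdh 0.049 and Mdh2 0.046. The scalings over other libraries and the median without the 4 genes with copies were also chosen after seeing the data. Against the input, CPM of the library total gave medians of 1.005 for glycolysis and 0.66 for the citrate cycle and 4 genes at least 2-fold above (3.504% of all genes); without Rn45s these were 1.05, 0.70 and 5 (3.89%). A limit of 1.5-fold gave 24 genes above (15.4%), and a pseudocount of 2 CPM gave 0 genes at least 2-fold below (5.57%), where Eno1 and Suclg2 had -1.06 and -0.93. Leaving out 1 library, log2 fold changes ran in cocaine against saline from -1.24 to 1.42 for Hk2, -0.12 to 0.071 for Pfkp and -0.070 to 0.034 for Eno2. In cocaine against yoked they ran from -0.78 to 1.23 for Hk2, -0.34 to 0.40 for Eno1, -0.24 to 0.035 for Hk1 and -0.010 to 0.065 for Dlst. In yoked against saline they ran from -1.32 to 1.04 for Hk2, -0.031 to 0.053 for Eno2, -0.029 to 0.090 for Ldhb, -0.17 to 0.031 for Ogdh and -0.14 to 0.040 for Mdh2. The cause was not tested. Hk2, Eno1 and Suclg2 had few counts (0 to 27, 8 to 33 and 13 to 57 in a pull-down). Saline 2 is the shallowest library, and Hk2 had 14 counts there and 0 in yoked 3, the deepest.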

Other observations

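Routes that branch from the 2 pathways were also measured. All 7 genes of the pentose phosphate pathway, which makes NADPH and ribose phosphate, passed the CPM minimum, with a median ratio to the input of 1.54 times. Pgls, the lactonase of the second step, had 15.1 ± 3.07 CPM in the pull-downs (SD, n = 9) and 4.96 CPM in the input, with 8 of 9 pull-downs at 2 times the input or more. Rpia, which isomerises ribose phosphate, had 3.97 ± 0.62 CPM in the pull-downs and 4.91 CPM in the input, and no pull-down was above the input. Of 9 genes of anaplerosis and the redox shuttles, with a median of 1.61 times, Got1, the cytosolic aspartate aminotransferase of the malate-aspartate shuttle, was highest at 374 ± 17.6 CPM in the pull-downs and 174 CPM in the input. Me1, the cytosolic malic enzyme, was lowest at 4.34 ± 1.17 CPM in the pull-downs and 8.59 CPM in the input.

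Carriers divided by gene. The neuronal glucose transporter Slc2a3 had 111 ± 7.87 CPM in the pull-downs and 87.5 CPM in the input, above the input in 9 of 9. Slc2a1, the transporter of endothelium and glia, had 12.2 ± 2.19 CPM in the pull-downs and 19.3 CPM in the input. The monocarboxylate carrier Slc16a1 had 7.43 ± 0.89 CPM in the pull-downs and 13.9 CPM in the input. Slc16a7, the lowest ratio of the list, had 11.8 ± 1.65 CPM in the pull-downs and 22.5 CPM in the input. All 3 had 0 of 9 pull-downs above the input. Mpc1 and Mpc2 were above the input in 9 of 9, and Slc16a3 in 4 of 9. Of 47 tested genes of these lists, edgeR called 0 in each group comparison after Benjamini-Hochberg adjustment, and 1, 1 and 0 had an unadjusted p under 0.05 in the contrasts of cocaine with saline, cocaine with yoked and yoked with saline. The gene was Pgam2, at 18.2, 18.1 and 22.6 CPM in cocaine libraries, 15.5, 15.04 and 15.3 CPM in yoked libraries and 17.1, 13.03 and 15.1 CPM in saline libraries, with no overlap between the cocaine group and the other 2, as 6.38% of all tested genes were higher without overlap against saline and 3.22% against yoked. The count of 1 in 47 lies near the shares of all tested genes with such a p, 2.84% and 2.58%.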
